A study of Mus musculus with 9 samples.

Results

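The nuclear genes for the subunits of oxidative phosphorylation were followed in RNA flushed from the lumen of mouse thoracic aortas after endothelial deletion of 3 MEF2 transcription factor genes. The genes were taken by symbol from the array's annotation: Nduf symbols of the a, b, c, s and v series, Sdha to Sdhd, names starting with Uqcr, Cox4 to Cox8 names, and names starting with Atp5. Cox8b and symbols marked -ps were left out, while pseudogenes named otherwise, such as Atp5l2, were not removed. This gave 85 symbols among 30142 named genes. Of these, 82 had a value of their own. Ndufa11, Ndufa11b and Ndufb4 lie only on probe clusters that name several genes and were given no value. Where a gene had several clusters, the brightest was used.

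Oxidative phosphorylation takes place in the inner mitochondrial membrane. Complexes I and II pass electrons from NADH and succinate to ubiquinone, complex III passes them on to cytochrome c, and complex IV hands them to oxygen, while complexes I, III and IV pump protons. Complex V, the ATP synthase, uses the proton gradient to make ATP. Most subunits are encoded in the nucleus, some with tissue-specific isoforms, and a small set is encoded in mitochondrial DNA. Endothelial cells draw much of their ATP from glycolysis, whereas brown fat, which also lies along the thoracic aorta, is packed with mitochondria.

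ACDiEKO mice were Cdh5-CreERT2(+) with Mef2a f/f, Mef2c f/f and Mef2d f/f, and carried a tamoxifen-activated recombinase under an endothelial promoter. Controls were Cdh5-CreERT2(-) littermates with the same floxed alleles, so both groups carried the floxed genes and both received tamoxifen in 5 daily injections at 10 weeks of age. All mice were female. Counted from the start of tamoxifen, the harvest was at day 7 in the series text but at day 14 in the sample protocol. The lumen of each aorta was flushed with TRIzol, and 5 ng of RNA was put on a Clariom D array. There were 5 ACDiEKO and 4 control arrays, labelled as 1 aorta each.

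ACDiEKO replicates 1 and 2 stood apart from all other pairs by their closeness: they correlated at 0.999 and differed with a robust SD of 0.0719, while that of the remaining 15 within-group pairs ran from 0.269 to 0.398. Whether they are separate RNAs or 1 RNA put on 2 arrays was not tested. Both were averaged and counted as 1 sample, which left 4 ACDiEKO and 4 control samples. Values are log2 units on the authors' deposited scale, which exceeds the span of a 16-bit scanner, so differences are not turned into folds. Mef2a averaged 13.76 ± 0.18 in ACDiEKO and 13.64 ± 0.10 in control, Mef2c 9.96 ± 0.11 in ACDiEKO and 9.90 ± 0.09 in control, and Mef2d 10.53 ± 0.13 in ACDiEKO and 10.29 ± 0.10 in control (SD, n = 4 each). None of these differences passed the limma test (adjusted p = 0.441 for Mef2a, 0.66 for Mef2c and 0.111 for Mef2d). The position of the probes relative to the deleted exons is not given in the sources used here, so these values do not check the deletion. Endothelial markers averaged 13.29 to 13.70 in ACDiEKO and 13.17 to 13.49 in control, with a median difference of -0.18. Of 9 tested, Emcn (3.72; adjusted p = 0.00249) and Kdr (0.96; adjusted p = 0.0315) rose and Tek (-1.92; adjusted p = 0.00522) and Pecam1 (-0.37; adjusted p = 0.0184) fell in limma. These were 44.4% of the endothelial markers tested, against 16.3% of all tested genes called in either direction. Smooth muscle markers averaged 9.82 to 10.82 in ACDiEKO and 8.39 to 9.42 in control, and 7 of 10 rose. That is 70%, against 8.92% of all tested genes called higher.

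The oxidative phosphorylation genes as a group changed in few members between ACDiEKO and control. Of the 78 members bright enough to test (at least 4 arrays above 6.165, the median of all values), 1 rose and 1 fell in ACDiEKO at a Benjamini-Hochberg adjusted p under 0.05 in limma. These 2 members were 2.56% of those tested, while 16.3% of all 16403 tested genes were called (8.92% higher and 7.33% lower). That is 1463 genes higher and 1203 lower, a split that became 1851 and 960 after median centring of the arrays and 1970 and 1038 after quantile normalization, with the same member counts. The gene that rose was Atp5g1, which encodes the membrane ring subunit c of the ATP synthase. The gene that fell was Atp5sl, whose RefSeq name is Dmac2, a complex I assembly factor and not a subunit of the ATP synthase. The other 76 did not pass, among them all 33 members of complex I, all 4 of complex II, all 8 of complex III and all 15 of complex IV that were tested.

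**Figure D1:**
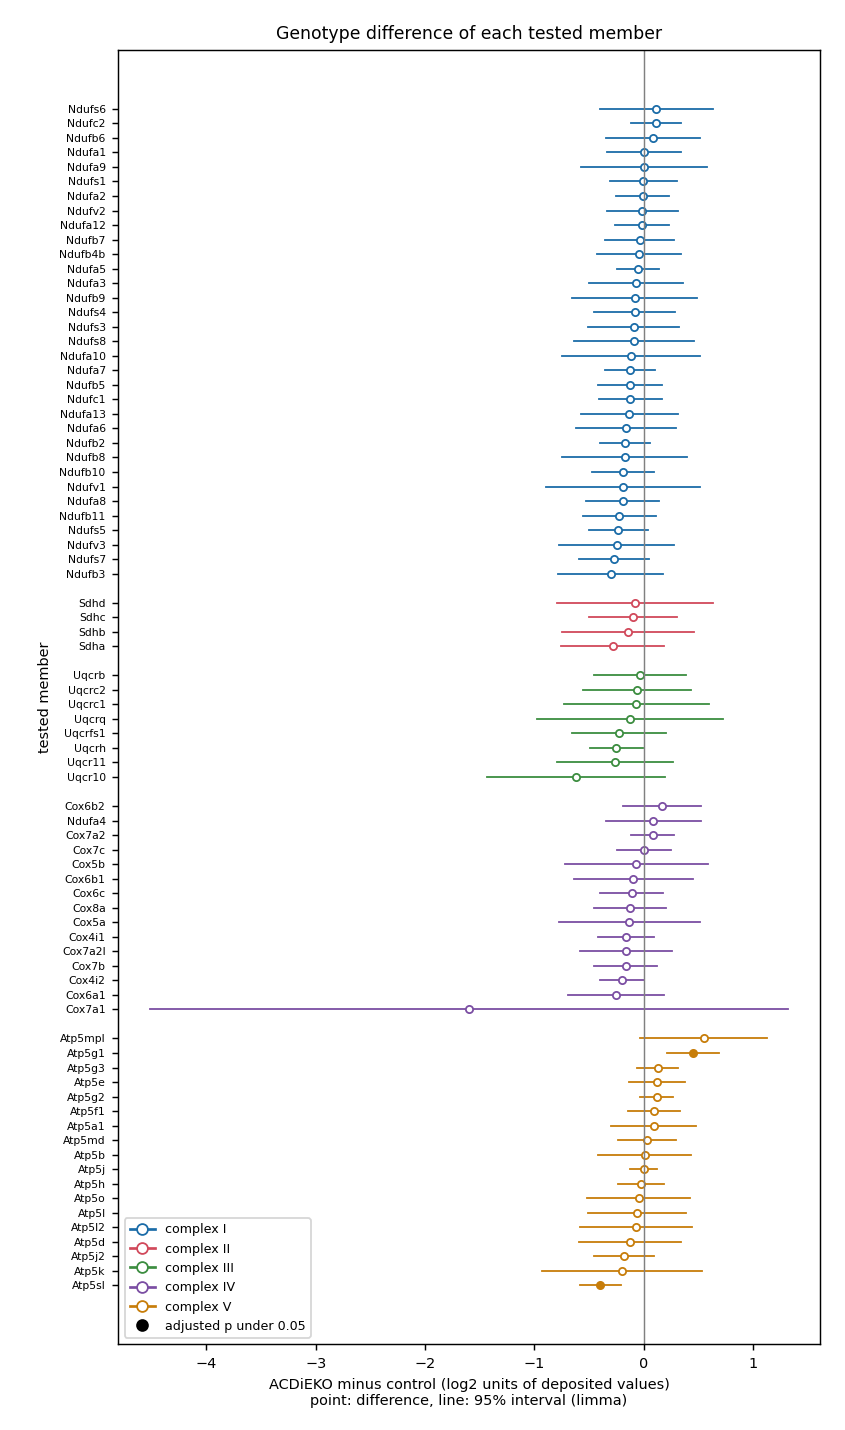
ACDiEKO minus control difference (log2, horizontal axis) of each of the 78 tested members by complex, with the limma 95% confidence interval as a bar. The intervals of Atp5g1, at 0.45, and Atp5sl, at -0.40, belong to the members that passed the adjusted test, and the interval of Cox7a1 is the widest, from -4.51 to 1.32. Filled points mark the 2 that passed.

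Small differences leaned to one side. The difference was below 0 in 61 of 78 members (78.2%), against 54.7% of all tested genes. The median difference was -0.09 in the members and -0.03 in all tested genes. By complex it was -0.09 in complex I, -0.12 in complex II, -0.18 in complex III, -0.13 in complex IV and 0.00 in complex V. The members' median turned to 0.01 without control replicate 4 and shrank to -0.01 without control replicate 2 and to -0.02 without ACDiEKO replicate 4, while it was -0.21 without control replicate 1 and -0.17 without control replicate 3. After median centring of the arrays it was -0.03, with 0.04 for all tested genes. The median standard error of a member's difference was 0.17, against 0.12 for all tested genes, so the members' differences were measured less precisely. The 95% interval lay within 1 log2 unit of 0 for 75 members and within 0.5 for 36, so for the other 42 a difference of 0.5 lay within the interval in at least 1 direction. In RNA from a mixed layer, fewer cells of a type and less RNA per cell cannot be told apart.

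Atp5g1 measured 9.36, 9.09, 9.20 and 9.21 in the ACDiEKO samples, against 8.84, 8.51, 8.89 and 8.84 in the control samples. All 4 ACDiEKO samples lay above all 4 control samples. The difference was 0.45 ± 0.10 (SE; limma, adjusted p = 0.0234). In limma the call was lost without ACDiEKO replicate 4 (adjusted p = 0.0597) and without ACDiEKO replicates 1 and 2 (adjusted p = 0.0633). It was also lost in limma without control replicates 3 and 4 (adjusted p = 0.0619). The difference stayed between 0.36 and 0.54 in these fits and in the fits that left out each other sample. Control replicates 3 and 4 carry F numbers, the numbers after the letter F in the sample titles, set apart from all others. What the F numbers count was not established. The fit without control replicates 3 and 4 is also the comparison within the only run of F numbers that holds both groups.

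Subunit c is encoded by 3 nuclear genes whose mature proteins are the same and whose import sequences differ. Atp5g2 had 13.10, 12.97, 12.94 and 12.95 in ACDiEKO, against 12.91, 12.82, 12.83 and 12.93 in control. Its groups did not overlap either, but its difference of 0.12 ± 0.07 (SE) did not pass (limma, adjusted p = 0.257). The brightest Atp5g2 cluster is placed by its identifier on chromosome 7, while the gene lies on chromosome 15. The dimmer cluster on chromosome 15 gave a difference of 0.15 (limma, adjusted p = 0.23). On that dimmer cluster the groups overlapped, with the lowest ACDiEKO sample at 11.325 and the highest control at 11.326. Atp5g3 had 11.57, 11.57, 11.56 and 11.59 in ACDiEKO and 11.50, 11.25, 11.44 and 11.60 in control, a difference of 0.13 ± 0.08 (SE; limma, adjusted p = 0.325). For Atp5g3 the highest control lay above every ACDiEKO sample. By the brightest clusters, groups did not overlap in 3 of the 78 members (3.85%), namely Atp5g1, Atp5g2 and Atp5sl, against 23% of all tested genes. The 2 on the higher side were 2.56%, against 12% of all tested genes, and the 1 on the lower side was 1.28%, against 11%.

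Atp5sl had 7.90, 8.14, 7.98 and 7.82 in ACDiEKO, against 8.38, 8.28, 8.38 and 8.40 in control. Each ACDiEKO sample was below each control, and the difference was -0.40 ± 0.08 (SE; limma, adjusted p = 0.014). The call was lost with the F number run added to the model (adjusted p = 0.066) and without control replicates 3 and 4 (adjusted p = 0.102), both in limma.

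The catalytic head of the ATP synthase did not pass the test. Atp5a1, the alpha subunit, measured 13.27, 13.41, 13.15 and 13.31 in ACDiEKO and 12.76, 13.46, 13.06 and 13.51 in control. Atp5b, the beta subunit that carries the catalytic site, measured 12.97, 12.91, 12.62 and 12.90 in ACDiEKO and 12.37, 13.16, 12.68 and 13.16 in control. For both genes the control samples spanned the ACDiEKO samples, and the difference was 0.09 ± 0.17 for Atp5a1 and 0.01 ± 0.19 for Atp5b (SE). Atp5mpl, a small membrane subunit, had the largest positive difference of all members: 13.56, 13.75, 13.92 and 13.98 in ACDiEKO against 12.70, 13.75, 12.88 and 13.69 in control, 0.55 ± 0.25 (SE; limma, adjusted p = 0.174). Its 2 higher controls, replicates 2 and 4, lay within the ACDiEKO range. Atp5k, which encodes subunit e, had a difference of -0.20 ± 0.32 (SE). The brightest cluster of Atp5l, subunit g, is placed on chromosome 5 while the gene is on chromosome 9, and Atp5l2 is listed by RefSeq as a pseudogene, so the source of both signals is uncertain.

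In complex I, differences ran from -0.30 for Ndufb3 to 0.11 for Ndufs6, and 28 of 33 were below 0. Ndufb3 and Ndufs7 had the largest negative ones, with 12.69, 12.59, 12.46 and 13.01 in ACDiEKO and 12.68, 13.54, 12.69 and 13.06 in control for Ndufb3, an accessory subunit. Ndufs7 holds the last iron-sulfur cluster before ubiquinone. It measured 9.54, 9.71, 9.40 and 9.68 in ACDiEKO and 9.60, 10.15, 9.68 and 10.00 in control, a difference of -0.27 ± 0.14 (SE; limma, adjusted p = 0.209). For both genes ACDiEKO replicate 5 lay above the lowest control, so the groups overlapped. Ndufs1, the largest subunit, with several iron-sulfur clusters, averaged 9.48 ± 0.09 in ACDiEKO and 9.49 ± 0.27 in control. Ndufv1, which binds NADH and flavin, measured 11.63, 11.79, 11.18 and 11.64 in ACDiEKO and 11.05, 12.21, 11.36 and 12.39 in control. Control replicates 2 and 4 lay above every ACDiEKO sample and control replicate 1 below them all. The largest positive differences were those of Ndufc2, 0.11 ± 0.10, and Ndufs6, 0.11 ± 0.22 (SE). The Ndufs6 cluster also carries the identifier of a pseudogene, Ndufs6b.

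Complex II is also succinate dehydrogenase of the citric acid cycle. Sdha, its flavin subunit, measured 11.99, 11.75, 11.42 and 11.98 in ACDiEKO and 11.53, 12.23, 12.14 and 12.38 in control. Sdhb, its iron-sulfur subunit, measured 12.20, 12.27, 11.75 and 12.21 in ACDiEKO and 11.60, 12.67, 11.99 and 12.74 in control. In both, control replicate 1 was near the bottom and control replicates 2 and 4 were on top. The differences were -0.28 ± 0.21 for Sdha and -0.15 ± 0.26 for Sdhb (SE), and those of the membrane anchors Sdhc and Sdhd were -0.10 and -0.08.

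In complex III all 8 differences were below 0 and none passed. Uqcr10, a small accessory subunit, measured 9.41, 10.54, 9.18 and 9.47 in ACDiEKO and 9.87, 10.99, 9.85 and 10.36 in control, a difference of -0.62 ± 0.35 (SE; limma, adjusted p = 0.261). Its groups overlapped through ACDiEKO replicate 3, the highest of its group. Uqcr11, another small accessory subunit, measured 10.11, 10.18, 9.64 and 10.54 in ACDiEKO and 10.07, 10.74, 10.06 and 10.66 in control, with overlapping groups and a difference of -0.26 ± 0.23 (SE; limma, adjusted p = 0.464). Uqcrh, the hinge protein, measured 12.60, 12.81, 12.48 and 12.79 in ACDiEKO and 12.79, 12.93, 12.83 and 13.12 in control, -0.25 ± 0.11 (SE; limma, adjusted p = 0.144). With Atp5g1, Atp5sl and Cox4i2, it was one of 4 members (5.13%) with an unadjusted p under 0.05, against 32.7% of all tested genes. Uqcrfs1, the Rieske iron-sulfur protein, averaged 8.66 ± 0.08 in ACDiEKO and 8.89 ± 0.41 in control, and Uqcrc1, a core subunit, 12.53 ± 0.28 in ACDiEKO and 12.60 ± 0.60 in control (SD, n = 4 each). Control samples spread several times more widely than ACDiEKO samples for Uqcrfs1.

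Complex IV holds the tissue isoforms. Cox4i1, the common form of subunit 4, measured 12.79, 12.91, 12.70 and 12.85 in ACDiEKO and 12.77, 13.13, 12.82 and 13.17 in control. Cox4i2, the form found mainly in lung and induced at low oxygen, lay near the limit for testing at 6.32, 6.16, 6.22 and 6.33 in ACDiEKO and 6.35, 6.54, 6.33 and 6.61 in control. Its lowest control equalled the highest ACDiEKO sample to 2 decimals, and its difference of -0.20 ± 0.09 (SE) did not pass (limma, adjusted p = 0.151). Cox6a1, the form outside muscle, had a difference of -0.25 ± 0.19, Cox6b1 of -0.10 ± 0.24, Cox6b2, the testis form, of 0.16 ± 0.16, and Cox7a2, the common form of subunit 7a, of 0.08 ± 0.09 (SE). Cox7a2 had 15.97, 15.97, 15.97 and 16.03 in ACDiEKO against 15.76, 16.04, 15.78 and 16.04 in control, so the controls split in pairs on either side of most ACDiEKO samples. Cox5a, a nuclear subunit next to the catalytic core, measured 13.48, 13.75, 13.14 and 13.48 in ACDiEKO and 12.99, 14.16, 13.18 and 14.04 in control, and Cox5b 14.81, 14.70, 14.44 and 14.70 in ACDiEKO and 13.98, 14.87, 14.59 and 15.49 in control. In both, control replicates 2 and 4 exceeded every ACDiEKO sample and control replicate 1 lay below every one. Cox8a, the common form of subunit 8, differed by -0.13 ± 0.14 and Ndufa4, now counted in complex IV, by 0.09 ± 0.19 (SE). Cox7a2l, a supercomplex factor and not a core subunit, differed by -0.16 ± 0.18 (SE).

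The 4 members too dim to test were all in complex IV. Cox6a2, the heart and muscle form, lay at 6.23 or lower in ACDiEKO and between 6.13 and 6.18 in control. Cox8c, a testis form, lay between 6.03 and 6.43 in ACDiEKO and between 6.10 and 6.25 in control. Cox7b2 lay between 5.74 and 5.90 in ACDiEKO and between 5.22 and 5.76 in control, and Ndufa4l2 between 4.12 and 4.29 in ACDiEKO and between 4.17 and 4.27 in control. None of the 4 exceeded the table's median of 6.165 in 4 or more arrays.

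**Figure D2:**
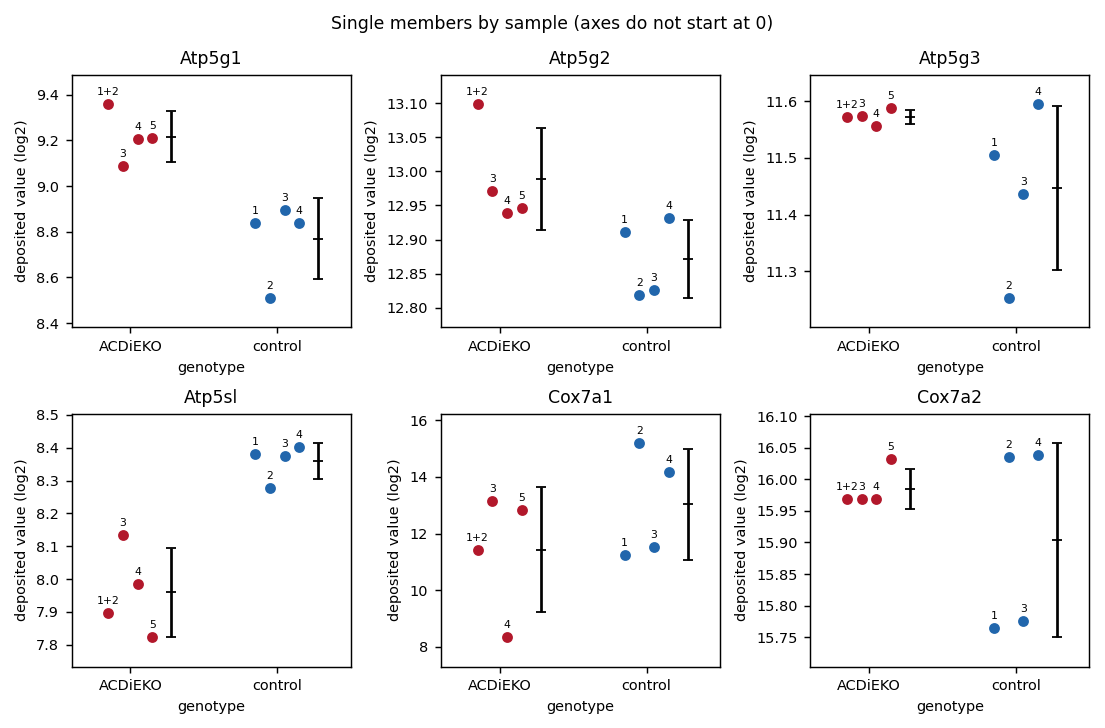
Deposited log2 values (vertical axes, which do not start at 0) of Atp5g1, Atp5g2, Atp5g3, Atp5sl, Cox7a1 and Cox7a2 in each ACDiEKO and control sample, numbered by replicate, with the mean and SD of 4 samples as bars. Atp5g1 is higher and Atp5sl lower in all 4 ACDiEKO samples, while Cox7a1 spreads from 8.33 to 13.15 in ACDiEKO and from 11.26 to 15.20 in control.

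Cox7a1, the heart and muscle form of subunit 7a that is also abundant in brown fat, varied far more than any other member. It measured 11.41, 13.15, 8.33 and 12.85 in ACDiEKO, against 11.26, 15.20, 11.52 and 14.16 in control. ACDiEKO replicate 4 was lowest and control replicates 2 and 4 were highest. The difference of -1.60 ± 1.27 (SE) did not pass (limma, adjusted p = 0.417). The other muscle form, Cox6a2, was not detected above the filter, and 15 skeletal and cardiac muscle markers averaged 5.99 to 6.14 in ACDiEKO and 5.89 to 6.03 in control. Of these markers, 10 were too dim to test, and of the 5 tested Acta1, an actin that smooth muscle can also express, rose (limma, adjusted p = 0.0128). It measured 8.55, 7.85, 8.17 and 8.02 in ACDiEKO against 7.60, 7.25, 6.99 and 7.11 in control. Acta1 is 20% of the tested list, against 8.92% of all tested genes called higher.

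The order of samples seen for Cox7a1 recurred across the members. The mean of all 78 was 11.60, 11.70, 11.43 and 11.79 in ACDiEKO, against 11.42, 12.01, 11.51 and 11.99 in control. Control replicates 2 and 4 thus lay above every ACDiEKO sample, and control replicate 1 lay below them all. Member by member, control replicates 2 and 4 were both above control replicates 1 and 3 in 69 of 78 (88.5%), against 16.5% of all tested genes. They were the 2 highest of all 8 samples in 49 (62.8%, against 7.05%). ACDiEKO replicate 4 was the lowest of its group in 57 (73.1%, against 29.7%). These sample orders were noticed after the values were seen. After quantile normalization of the arrays the counts were 68, 36 and 42 members, against 14.5%, 5.34% and 26.7% of all tested genes. The 9 members without the split among controls were Ndufa6, Ndufa9, Ndufb11, Cox7a2l, Atp5g1, Atp5g2, Atp5g3, Atp5j and Atp5sl. All 3 genes of subunit c are among them, but for Atp5g2 this depended on the cluster. On its dimmer cluster on chromosome 15, control replicates 2 and 4 (11.33 and 11.32) lay above control replicates 1 and 3 (11.24 and 11.17). The range was wider in control than in ACDiEKO in 65 of 78 members, with a median SD of 0.152 in ACDiEKO and 0.296 in control. Over all tested genes it was wider in control in 53%, and the median SD was 0.159 in ACDiEKO and 0.166 in control.

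**Figure D3:**
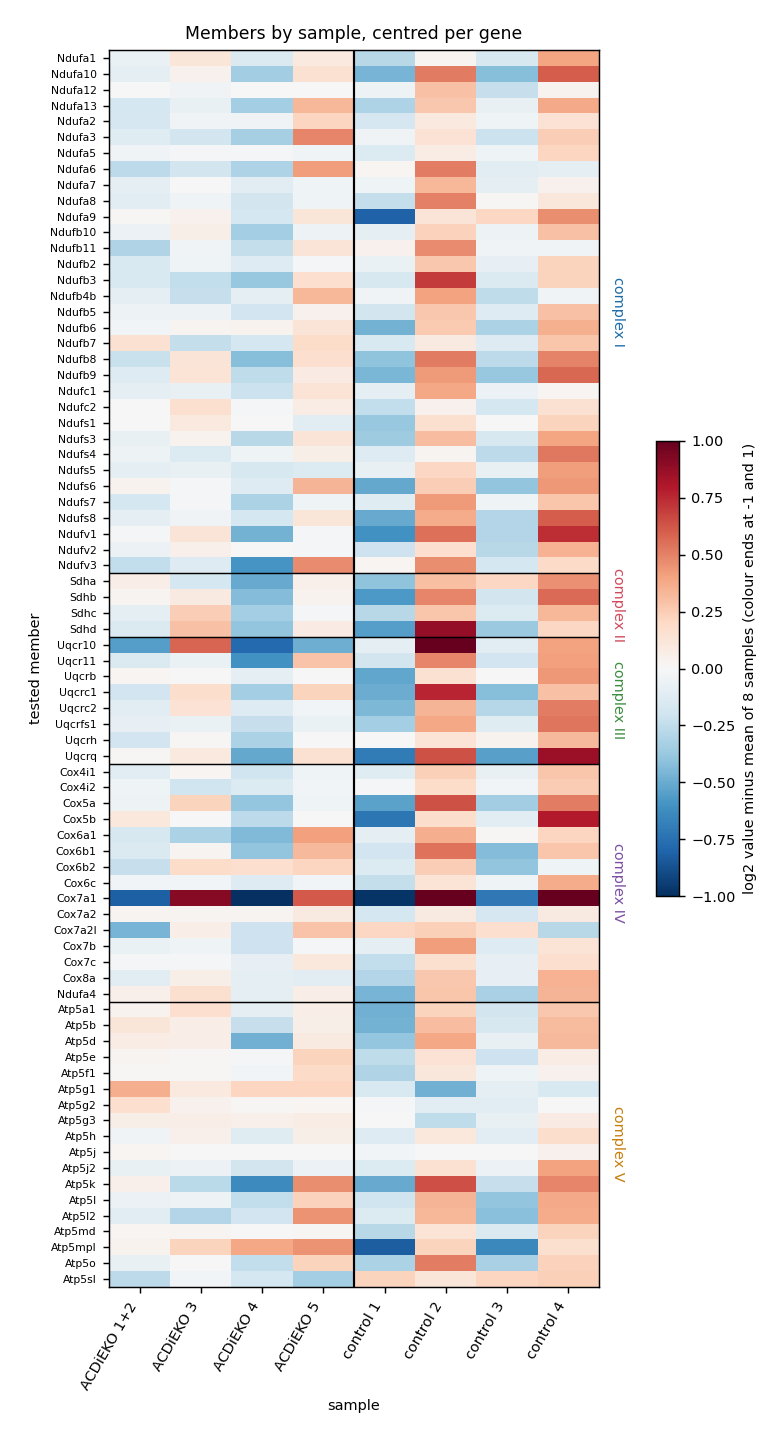
Log2 value of each tested member (rows, by complex) in each ACDiEKO and control sample (columns), as the difference from that member's mean over the 8 samples. Control replicates 2 and 4 are high and ACDiEKO replicate 4 is low in most rows of every complex.

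Brown fat markers shared part of this order: control replicates 2 and 4 were highest, and ACDiEKO replicate 4 was the lowest of its group. In the brown fat mean ACDiEKO replicate 4 was also the lowest of all samples, while in the members' mean control replicate 1 was lowest. The mean of 10 brown fat markers was 8.21, 8.76, 6.69 and 8.68 in ACDiEKO, against 7.92, 9.86, 8.12 and 9.73 in control. Ucp1, the uncoupling protein that defines brown fat, measured 12.42, 13.33, 7.53 and 12.82 in ACDiEKO and 11.53, 15.33, 13.03 and 15.71 in control. Cox8b, the subunit 8 form of muscle and brown fat that is one of these markers, measured 11.30, 11.80, 7.27 and 12.02 in ACDiEKO and 10.56, 13.23, 10.54 and 13.01 in control. The 2 that fell in ACDiEKO were S100b (difference -1.22, limma, adjusted p = 0.0289) and Dio2 (-0.77, limma, adjusted p = 0.0447). They were 22.2% of the 9 markers tested, against 7.33% of all tested genes called lower, and the other 7 did not pass. All 10 had a value, and Ucp1, Cidea and Cox8b were above the filter in every sample. White and general fat markers averaged 6.91 to 9.01 in ACDiEKO and 7.29 to 9.07 in control, with 0 of 7 called, against 16.3% of all tested genes. These markers shared the split among controls: control replicates 2 and 4 were above replicates 1 and 3 in 7 of 7. They did not share the whole order, because ACDiEKO replicate 5 averaged 9.01 and control replicate 4 averaged 8.35.

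**Figure D4:**
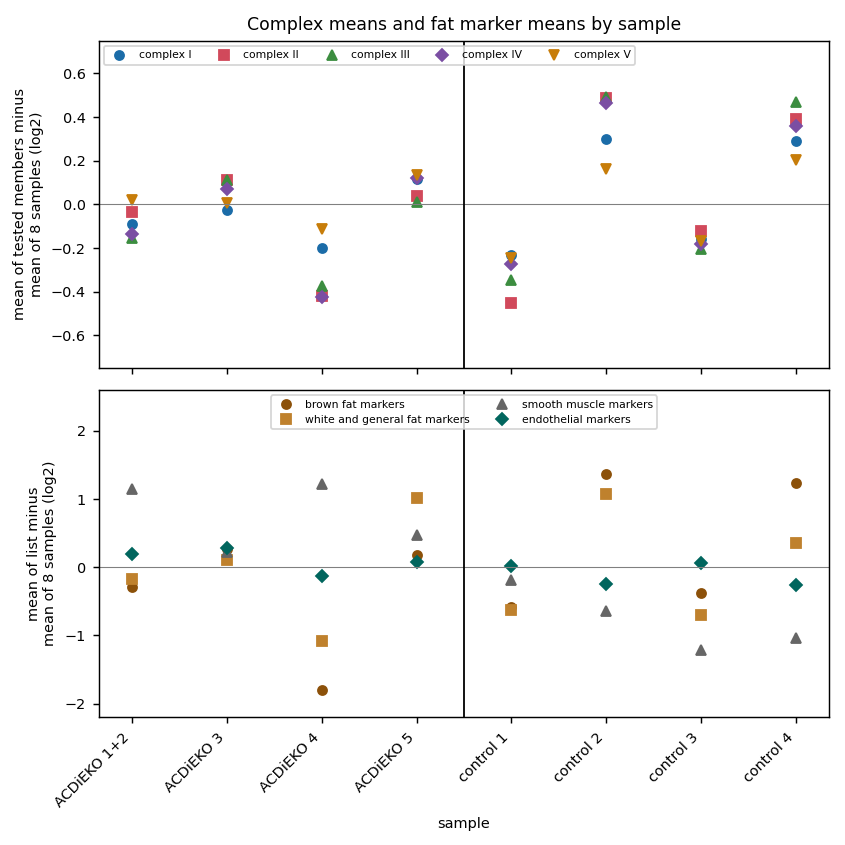
Upper panel, mean of the tested members of each complex, and lower panel, mean of 4 marker lists, in the 4 ACDiEKO and 4 control samples, each as the difference from its own mean over the 8 samples (log2). In every complex and in the brown fat markers, control replicates 2 and 4 are high and ACDiEKO replicate 4 is the lowest of its group. Control replicate 1 lies lower still in complexes I, II and V, and control replicate 3 in complex V. Complex V spreads least.

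In a limma fit with the group and the brown fat marker mean as terms, the slope of a member on that mean was above 0 in 75 of 78 (96.2%), against 52.3% of all tested genes. It was above 0 with an unadjusted p under 0.05 in 50 of 78 (64.1%, against 5.99%). After adjustment over all genes it passed only in Cox7a1 among the members (1.28%, against 0.299% of all tested genes), at 2.07 ± 0.13 log2 units per log2 unit of the marker mean (SE; limma, adjusted p = 0.00275). The median slope was 0.19 in the members and 0.00 in all genes. After Cox7a1 the highest were Uqcrq at 0.55, Ndufv1 at 0.46, Atp5k at 0.45, Sdhd at 0.44 and Uqcr10 at 0.44. Uqcrq, a small subunit of complex III, measured 13.56, 13.66, 13.04 and 13.71 in ACDiEKO and 12.86, 14.19, 13.02 and 14.41 in control, and Sdhd 9.26, 9.70, 9.01 and 9.49 in ACDiEKO and 8.85, 10.29, 9.04 and 9.61 in control. By complex the median was 0.17 in complex I, 0.33 in complex II, 0.32 in complex III, 0.16 in complex IV and 0.14 in complex V. Atp5g1 at -0.07, Atp5sl at -0.01 and Atp5g3 at -0.01 were the 3 members with no positive slope. Some other marker lists sloped upward on that mean too. Above 0 were 7 of 7 white and general fat markers (median 0.67) and 8 of 8 leukocyte markers (median 0.53). Smooth muscle markers went the other way, with 0 of 10 above 0 (median -0.20). Endothelial markers were mixed, with 4 of 9 above 0 (median -0.002). All slopes share the same 8 samples and the same marker mean. In this fit the members' median difference was 0.11, Atp5g1 had a difference of 0.39 (limma, adjusted p = 0.0728) and Atp5sl one of -0.41 (limma, adjusted p = 0.0391). The part of fat in the members' values was not tested beyond this fit.

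**Figure D5:**
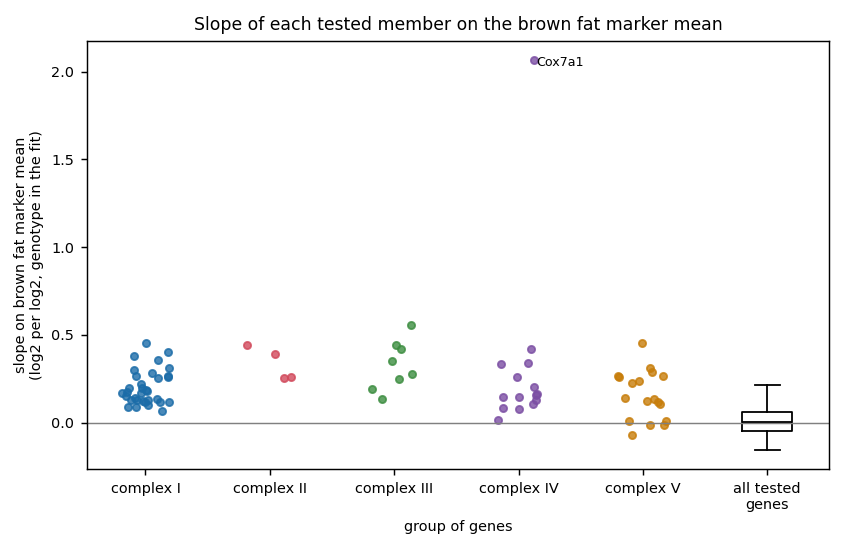
Slope of each tested member on the brown fat marker mean (log2 units per log2 unit, vertical axis) by complex, from the limma fit with group as a term, beside a box of all tested genes (quartiles, whiskers at percentiles 5 and 95). Cox7a1 stands at 2.07, the median of the members is 0.19, and Atp5g1, Atp5sl and Atp5g3 are the 3 points below 0.

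The promoters of 4 members were read from RefSeq on GRCm38.p6, from 250 bases before to 50 after the start: Atp5g1 and Atp5sl, which passed the group test, and Cox7a1 and Ndufv1, the 2 highest slopes on the brown fat marker mean among members with a promoter in the table. Capitals mark matches on either strand to short motifs of regulators known from respiratory genes: NRF1 (GCGCA, then any base, then GCGC), ERR (AAGGTCA), ETS factors such as GABP (CCGGAAG) and YY1 (AAGATGG). They are Atp5g1 at chr11:96075582-96075881 (minus strand), Atp5sl at chr7:25619164-25619463 (plus strand, the 1 of 2 listed starts with more matches), Cox7a1 at chr7:30183921-30184220 (plus strand) and Ndufv1 at chr19:4012706-4013005 (minus strand).
Atp5g1: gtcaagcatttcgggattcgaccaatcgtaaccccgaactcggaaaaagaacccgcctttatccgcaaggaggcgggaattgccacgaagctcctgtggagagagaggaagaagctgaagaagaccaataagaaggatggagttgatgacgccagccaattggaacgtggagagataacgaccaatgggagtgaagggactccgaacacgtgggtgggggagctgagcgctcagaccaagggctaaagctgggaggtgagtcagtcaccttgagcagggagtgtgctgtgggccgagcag
Atp5sl: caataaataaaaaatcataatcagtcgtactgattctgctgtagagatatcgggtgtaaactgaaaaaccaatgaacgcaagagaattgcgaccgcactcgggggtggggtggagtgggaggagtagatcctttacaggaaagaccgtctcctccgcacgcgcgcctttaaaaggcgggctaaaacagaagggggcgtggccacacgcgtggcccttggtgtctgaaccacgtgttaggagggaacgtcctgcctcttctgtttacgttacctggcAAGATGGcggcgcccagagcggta
Cox7a1: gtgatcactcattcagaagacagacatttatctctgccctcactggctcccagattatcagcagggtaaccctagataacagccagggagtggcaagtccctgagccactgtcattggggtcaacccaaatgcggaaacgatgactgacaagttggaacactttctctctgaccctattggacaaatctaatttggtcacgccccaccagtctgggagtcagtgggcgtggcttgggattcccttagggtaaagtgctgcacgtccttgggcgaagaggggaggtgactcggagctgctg
Ndufv1: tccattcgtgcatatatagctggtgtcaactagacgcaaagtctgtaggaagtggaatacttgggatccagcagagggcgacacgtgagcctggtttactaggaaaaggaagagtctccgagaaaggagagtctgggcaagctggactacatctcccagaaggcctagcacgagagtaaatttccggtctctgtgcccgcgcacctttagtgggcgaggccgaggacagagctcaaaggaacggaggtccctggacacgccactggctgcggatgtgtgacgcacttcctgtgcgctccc
The Atp5g1, Cox7a1 and Ndufv1 windows held none of these letters, and the Atp5sl window held 1 YY1 match. Among the 65 members with a promoter in the table, 13 held the NRF1 letters at any listed start (20%), against 5.19% of 27025 genes. The ETS letters were in 17 (26.2%, against 9.93%), YY1 in 11 (16.9%, against 7.28%) and ERR in 7 (10.8%, against 5.38%). The MEF2 consensus was in 0 of 65, against 3.7% of genes. None of these motifs contains another. Matches describe letters in these windows and do not locate binding.

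The genes that work with these subunits were set beside them. Of the 13 subunits encoded in mitochondrial DNA, 5 had a cluster of their own, and 0 rose or fell, against 16.3% of all tested genes. COX1, the catalytic subunit of complex IV, averaged 18.29 ± 0.23 in ACDiEKO and 18.42 ± 0.19 in control (SD, n = 4 each). ND2 measured 14.44, 14.49, 14.50 and 16.17 in ACDiEKO and 16.46, 16.37, 14.79 and 15.34 in control, with control replicates 1 and 2 on top. Control replicates 2 and 4 were both above replicates 1 and 3 in 0 of the 5, while the slope on the brown fat marker mean was above 0 in 5 of 5, with a median of 0.16. Of 7 subunits and carriers outside the symbol rule, Slc25a5, an ADP/ATP carrier of the inner membrane, rose: 14.52, 14.37, 14.40 and 14.16 in ACDiEKO against 13.11, 13.18, 13.10 and 13.66 in control, a difference of 1.10 ± 0.14 (SE; limma, adjusted p = 0.00242). All ACDiEKO samples exceeded all controls for Slc25a5. It was the only 1 of the 7 called, 14.3%, against 16.3% of all tested genes. Its relative Slc25a4 differed by -0.28 ± 0.10 (SE) and did not pass (limma, adjusted p = 0.0881).

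The assembly factors were called about as often as genes in general: 14.3% of those of complex I and 12.5% of those of complexes II to V, against 16.3% of all tested genes. Among 14 complex I assembly factors, Ndufaf4 rose by 0.74 ± 0.13 (limma, adjusted p = 0.00721) and Tmem126b fell by 0.65 (limma, adjusted p = 0.017), and the median difference was 0.00. Among 24 assembly factors of complexes II to V, Cox18, which inserts part of COX2 into the membrane, rose by 0.64 ± 0.09 (limma, adjusted p = 0.00403), Cox10, an enzyme of heme A synthesis, rose by 0.40 ± 0.10 (limma, adjusted p = 0.0305), and Surf1, a complex IV assembly factor, fell by 0.52 (limma, adjusted p = 0.012). Their median difference was -0.06. The Cox10 call was lost in 6 of the 8 fits that left out a sample (limma, adjusted p up to 0.0701), and the Tmem126b call without ACDiEKO replicate 4 (limma, adjusted p = 0.0533). Without control replicates 3 and 4, Ndufaf4 (adjusted p = 0.0603) and Surf1 (adjusted p = 0.0592) also lost theirs in limma.

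Mitochondrial protein import had the most calls among the 9 pathway lists examined: 7 of 18 rose and 0 fell (8.92% of all tested genes were called higher), with a median difference of 0.26 against -0.03 for all tested genes. The list mean was 10.61 to 10.69 in ACDiEKO and 10.22 to 10.50 in control, without overlap. Timm10, a chaperone of the intermembrane space, measured 8.96, 8.84, 8.68 and 8.91 in ACDiEKO and 8.12, 8.52, 7.90 and 8.32 in control (difference 0.63 ± 0.14; limma, adjusted p = 0.0185). Timm22, the channel for carrier proteins such as Slc25a5, differed by 0.31 ± 0.07 (limma, adjusted p = 0.017), and Tomm20, a receptor of the outer membrane, by 0.28 ± 0.07 (limma, adjusted p = 0.025). The Timm10 call was lost without ACDiEKO replicates 1 and 2 (limma, adjusted p = 0.0543) and the Tomm20 call in 5 of the 8 fits that left out a sample (limma, adjusted p up to 0.064). Smooth muscle markers also separated the groups without overlap, and their part in these rises was not tested.

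The citric acid cycle list had 0 of 17 called, against 16.3% of all tested genes, and a median difference of 0.00. Its samples ordered like the members: control replicates 2 and 4 were above replicates 1 and 3 in 17 of 17, and the median slope on the brown fat marker mean was 0.37. Idh3a, a subunit of isocitrate dehydrogenase, measured 11.34, 11.65, 11.02 and 11.66 in ACDiEKO and 10.18, 12.42, 10.73 and 12.04 in control. Of 32 genes of the mitochondrial ribosome and translation, 2 rose (6.25%, against 8.92% of all tested genes) and 0 fell: Mrps18b by 0.65 ± 0.12 (limma, adjusted p = 0.0111) and Gfm1 by 0.38 ± 0.08 (limma, adjusted p = 0.0167). Without control replicates 3 and 4 both calls were lost (limma, adjusted p = 0.0873 for Mrps18b and 0.0667 for Gfm1). Of 17 regulators of mitochondrial biogenesis, 2 rose (11.8%, against 8.92%) and 0 fell: Pprc1, a relative of PGC-1alpha, by 0.87 ± 0.23 (limma, adjusted p = 0.036) and Gabpb1, a partner of an ETS factor, by 0.41 ± 0.09 (limma, adjusted p = 0.0212). The Pprc1 call was lost when any 1 of the 4 controls or ACDiEKO replicate 4 was left out (limma, adjusted p up to 0.0892), and the Gabpb1 call without ACDiEKO replicates 1 and 2 or replicate 4 (limma, adjusted p up to 0.0626). Ppargc1a, which encodes PGC-1alpha, had 7.30, 7.65, 6.35 and 7.95 in ACDiEKO and 7.58, 8.51, 7.61 and 8.73 in control and did not pass (limma, adjusted p = 0.208). Of 10 tested hypoxia response genes, Epas1, which encodes HIF-2alpha, fell by 0.83 (limma, adjusted p = 0.00219) and Vegfa fell by 1.08 (limma, adjusted p = 0.0293), while 0 were called higher. These 2 are 20% of the tested list, against 7.33% of all tested genes called lower. The Vegfa call was lost when any 1 of the 4 controls or ACDiEKO replicate 5 was left out (limma, adjusted p up to 0.079). The median difference of the 10 tested genes was -0.12. Hif1a differed by 0.45 with overlapping groups and did not pass (limma, adjusted p = 0.19). Another 2 listed genes, Adm and Car9, were too dim to test. Adm lay higher in every ACDiEKO sample than in every control, with a difference of 0.95, while that of Car9 was -0.01.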

How the data were processed

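RNA flushed from the aortic lumen, labelled as endothelial, was measured on 9 Clariom D arrays. The authors used RMA (version not given, per the submitters' processing notes), which subtracts background, brings arrays to a shared distribution and combines the probes of a transcript cluster, and deposited log2 values. Values reached 19.34, above the 16 log2 units of a 16-bit scanner, and the notes do not say how. Array medians over the transcript clusters were not equal in the deposited values: 6.034 to 6.109 in control and 5.990 to 6.029 in ACDiEKO. Control replicates 2 and 4 had the highest medians, 6.091 and 6.109. The annotation build is not given in the sources used here. Precision is limited by how few arrays there are.

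After removal of 6732 control features from 72688, the remaining 65956 clusters included 30604 with 1 symbol, 2146 with several and 33206 with none. Symbols were updated through RefSeq (GRCm38) for 827, and the brightest cluster per symbol gave 30142 genes. The fit of ACDiEKO minus control used limma 3.58.1 (R 4.3.3; lmFit, eBayes, two-sided, Benjamini-Hochberg over the 16403 tested genes, threshold 0.05). The steps were tested on simulated data. The titles give 2 controls the number 3, and the second is called replicate 4. Same-numbered arrays did not deviate together (correlations of -0.0049, -0.145, 0.0353 and 0.0413 across genes), and the numbers were not taken as pairs.

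The members, the gene and marker lists and the tests were chosen with earlier results of these data known. By rule the text names members past the threshold, the 2 largest differences of each sign in a complex, tissue isoforms, core catalytic subunits and up to 3 called genes of each list. Other genes, such as Uqcrh, Uqcrq, Cox5b, Sdhd, Acta1, Emcn, Slc25a4, Idh3a, Ppargc1a, Hif1a, Adm, COX1 and ND2, were chosen after their values were seen. Promoters came from RefSeq. Alternatives were other filters and scalings, the mean of a gene's clusters, and variance and weight options. Others were a replicate block, the run of F numbers in the titles, a brown fat covariate and leaving out samples. One was added after seeing the data: the clusters of Atp5g2 and Atp5l on the chromosome of the gene. Figures were drawn with matplotlib 3.10.9.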

Additional observations from a re-analysis of the deposited data

Results flagged for a closer look

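In 9 of the 80 groups of 4 samples examined (both groups, for the members named by rule and the complex means), 1 sample lay far from the other 3 by Dixon's test, and chance alone flags about 1 in 20 groups. ACDiEKO replicate 4 was low for Sdhb (11.75, next value 12.20) and for Uqcrfs1 (8.54, next 8.69), and it also had the lowest brown fat marker mean, 6.69. The averaged ACDiEKO replicates 1 and 2 were low for Cox6b2 (7.83, next 8.23). ACDiEKO replicate 5 was high for Cox7a2 (16.03, next 15.97) and ACDiEKO replicate 3 for Cox8a (13.72, next 13.57). Among controls, replicate 2 was low for Atp5g1 (8.51, next 8.84) and high for Cox6a2 (6.18, next 6.13), replicate 4 was low for Cox7a2l (11.53, next 11.98), and replicate 3 was high for Cox8c (6.25, next 6.12). Cox6a2 and Cox8c are too dim to test. Several of these gaps are under 0.2 log2 units, because the other 3 samples were nearly equal. The array values hold exact ties: 3 or more arrays were equal in 12 of 78 tested members (15.4%) and in 27.1% of all tested genes.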

How the results depend on the processing

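The count of all called genes (2666) was 1692 with the F number run in the model and 1127 without both controls of the other run (replicates 3 and 4). It was 1673 with the brown fat covariate and 1680 without ACDiEKO replicate 4. Leaving out 1 sample at a time gave 1680 to 2465. The single member called higher, Atp5g1, became 0 with the replicate block, without control replicates 3 and 4, and with the brown fat covariate, and 0 to 1 when samples were left out. The single member called lower, Atp5sl, became 0 under the stricter filter, which removed it from the tested genes. It also became 0 with the F number run and without control replicates 3 and 4, and stayed 1 when single samples were left out. The title numbers were not taken as pairs. With them as a replicate block over 9 arrays, 2351 genes were called and Atp5g1 had an adjusted p of 0.0714 in limma. The members' median difference ranged from -0.21 to 0.01 when samples were left out and was 0.11 with the brown fat covariate. Of all called genes, 1463 were higher and 1203 lower; with median centring the split was 1851 and 960, and with quantile normalization 1970 and 1038. Of the 15 list genes named as called, 12 lost the call under at least 1 alternative (all but Slc25a5, Cox18 and Epas1; Timm22 only with the replicate block, at an adjusted p of 0.0598 in limma), and none reversed. Why these counts moved was not tested; the fits without samples hold fewer samples. The spread among 4 control samples limits what can be detected.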
